A study of Mus musculus with 32 samples.

Results

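Neurotrophic factors are secreted proteins that keep neurons alive and shape their endings, and muscle is a classical source of them for the motor neurons that supply it. The 9 genes described here are 3 ligands and 6 receptors, taken as a list of symbols from the 24421 genes of a raw read count table. The ligands are Bdnf, Ntf3 and Gdnf. Ntrk2 (TrkB) is the receptor kinase for BDNF, Ntrk3 (TrkC) is the one for neurotrophin-3, and Ngfr (p75) binds all neurotrophins. GDNF binds the anchored receptor Gfra1, which then engages the kinase Ret. Cntfr is the binding subunit of the receptor for ciliary neurotrophic factor and acts with Lifr and Il6st.

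Albino mice of line B6(CG)Tyr(c-2J)/J, which carry a changed tyrosinase gene, were compared with pigmented C57BL/6 mice to relate nystagmus to gene expression. For either genotype, RNA of 4 tissues was sequenced, in 4 libraries per tissue. The eye muscles (EOM) and the tibialis anterior of the leg (TA) are the muscles, and samples labelled as oculomotor (CN3) and abducens (CN6) motor neurons come from the brainstem. The nucleus that supplies TA lies in the spinal cord and was not sampled, so a muscle and a matching nucleus can be set side by side only for the eye muscles. Library totals ran from 18544334 to 44254021 counts. The labels give no age, sex, number of mice per library or statement that replicates are separate mice, so each p-value measures the spread between these libraries, which may be technical.

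In 8 of the 16 albino libraries the muscle and brain marker genes contradicted the label. Replicates 1 and 2 of the muscles, by label albino EOM and albino TA, carried brain genes, and replicates 3 and 4 of the nuclei, by label albino CN3 and albino CN6, carried muscle genes. The receptors show it too. Ntrk2 stood at 907 and 813 CPM (read counts per 1e+06 of the library total) in replicates 1 and 2 of label albino EOM, against 47.5 and 29.3 CPM in replicates 3 and 4. These 8 libraries were left out and none was moved, which leaves 2 albino and 4 C57BL/6 libraries per tissue. Where a regrouping of the albino libraries by their tissue markers changes a call, its value is given beside the result.

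The labelled cell type was checked in the nucleus samples as well. Chat, the enzyme that makes acetylcholine and a defining gene of motor neurons, was at 8.52 and 16.7 CPM in albino CN3, against 0.212 to 0.717 CPM in C57BL/6 CN3, and at 26.5 and 18.4 CPM in albino CN6, against 9.39 to 20.5 CPM in C57BL/6 CN6. The summed level of the cholinergic motor neuron list was 56.4 to 111 CPM in albino CN3, against 8.69 to 12.4 CPM in C57BL/6 CN3, where Mnx1 and Phox2a were at 0. It was 176 to 188 CPM in albino CN6 and 88.2 to 184 CPM in C57BL/6 CN6. The C57BL/6 CN3 samples thus held few motor neuron transcripts, and CN3 and CN6 are used below as the names on the labels. In bulk RNA, fewer cells of a type and less RNA per cell cannot be told apart.

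Gdnf (chromosome 15, 7810846 to 7837575, mm10) was higher in eye muscle than in the 3 other tissues. It was at 4.13, 3.07, 5.31 and 3.26 CPM in the 4 C57BL/6 EOM libraries, against 0.560, 0.537, 0.433 and 0.787 CPM in the 4 C57BL/6 TA libraries. Every EOM library lay above every TA library. With library scaling by TMM, edgeR's method that sets the bulk of genes to no change, the log2 fold change of EOM over TA was 2.08 ± 0.28 (SE, adjusted p = 2.5e-05, edgeR quasi-likelihood test with Benjamini-Hochberg adjustment over all genes). In the nucleus samples Gdnf was at 0.391, 0.136, 1.17 and 0.764 CPM in C57BL/6 CN3 and at 0.192, 0.408, 0.219 and 0.351 CPM in C57BL/6 CN6, which is 6 to 44 counts per library. EOM exceeded CN3 by 3.02 ± 0.51 and CN6 by 4.02 ± 0.31 on the log2 scale (adjusted p = 2.7e-04 and 3.7e-07).

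Ntf3 (chromosome 6, 126101412 to 126166910, mm10), the gene of neurotrophin-3, was read in both muscles. Its levels were 3.68, 3.56, 3.83 and 3.49 CPM in C57BL/6 EOM and 2.4, 1.99, 1.99 and 1.64 CPM in C57BL/6 TA. All EOM libraries were above all TA libraries in CPM, yet the TMM-scaled log2 fold change was 0.19 ± 0.19 (adjusted p = 0.40) and became 0.86 (adjusted p = 0.0014) with library totals. Ntf3 was at 0.456, 0.181, 0.424 and 0.294 CPM in C57BL/6 CN3 and at 0.704, 0.586, 0.329 and 0.502 CPM in C57BL/6 CN6. EOM was higher than CN3 by 3.76 ± 0.30 and higher than CN6 by 3.08 ± 0.25 on the log2 scale (adjusted p = 8.0e-07 and 5.5e-07).

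Bdnf (chromosome 2, 109674700 to 109727007, mm10) had the reverse distribution, with its higher levels in the nucleus samples. It was at 1.39, 1.29, 1.65 and 1.56 CPM in C57BL/6 EOM, at 0.480, 0.844, 1.04 and 0.608 CPM in C57BL/6 TA, at 17.7, 15.0, 15.5 and 14.3 CPM in C57BL/6 CN3 and at 8.80, 9.97, 9.39 and 8.64 CPM in C57BL/6 CN6. The ranges of the 4 tissues did not overlap. EOM was lower than CN3, with a log2 fold change of −3.07 ± 0.14, and lower than CN6, with −2.33 ± 0.14 (adjusted p = 1.2e-08 and 5.1e-08). The 2 muscles differed by 0.32 ± 0.32 with TMM (adjusted p = 0.37) and by 0.99 with library totals (adjusted p = 0.011). An annotated gene, Gm45346, overlaps Bdnf on the other strand, and the strand setting of the counting is not given in the sources used here.

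Per length of exon the ligands can be set against each other. In C57BL/6 EOM, Ntf3 averaged 2.12 ± 0.0874 RPKM (CPM divided by exon length in kilobases), Gdnf 1.07 ± 0.278 RPKM and Bdnf 0.237 ± 0.0261 RPKM (SD, n = 4). In C57BL/6 TA the means were 1.17 ± 0.180 RPKM for Ntf3, 0.158 ± 0.0406 RPKM for Gdnf and 0.119 ± 0.0400 RPKM for Bdnf. In C57BL/6 CN3 the order turned, with Bdnf at 2.52 ± 0.232 RPKM, Ntf3 at 0.198 ± 0.0738 RPKM and Gdnf at 0.167 ± 0.122 RPKM.

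The start regions of the ligand genes are printed because the 3 genes differ in where they are read. RefSeq start regions (GRCm38.p6, 250 bases before to 50 after the start) were found for 7 of the 9 genes. For the ligands the most upstream start is shown 5′ to 3′, with matches to 3 motifs in capitals: the E-box CACGTG, the E-box CAGCTG that myogenic factors can bind, and CGTCA, one end of the cAMP response element.
Gdnf, chr15:7809798-7810097, + strand: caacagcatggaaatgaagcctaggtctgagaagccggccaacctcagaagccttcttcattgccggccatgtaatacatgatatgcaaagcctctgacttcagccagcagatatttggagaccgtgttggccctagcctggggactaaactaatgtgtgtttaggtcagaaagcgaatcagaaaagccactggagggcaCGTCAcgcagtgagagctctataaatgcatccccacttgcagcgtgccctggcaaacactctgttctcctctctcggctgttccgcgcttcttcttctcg
Ntf3, chr6:126166695-126166994, - strand: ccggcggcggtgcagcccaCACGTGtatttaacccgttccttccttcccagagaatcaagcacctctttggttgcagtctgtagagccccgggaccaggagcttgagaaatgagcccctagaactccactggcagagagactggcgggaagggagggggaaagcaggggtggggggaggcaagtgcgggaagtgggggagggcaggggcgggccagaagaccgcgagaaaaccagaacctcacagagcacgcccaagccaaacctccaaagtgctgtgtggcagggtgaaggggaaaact
Bdnf, chr2:109674450-109674749, + strand: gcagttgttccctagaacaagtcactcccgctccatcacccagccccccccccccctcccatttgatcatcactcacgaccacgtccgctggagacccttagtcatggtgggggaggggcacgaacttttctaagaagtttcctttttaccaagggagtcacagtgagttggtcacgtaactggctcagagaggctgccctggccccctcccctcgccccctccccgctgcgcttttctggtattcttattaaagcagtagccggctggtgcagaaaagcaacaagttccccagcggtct
The E-boxes read alike on both strands, and CGTCA was searched on both. The Gdnf region holds 1 CGTCA, the Ntf3 region 1 CACGTG and the Bdnf region none of the 3. Over 32851 RefSeq start regions of the same length, CACGTG occurs in 7.15%, CAGCTG in 16.3% and CGTCA in 20.8%. Bdnf has 7 starts in that table, and gene-level counts do not say which of them was used.

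**Figure D1:**
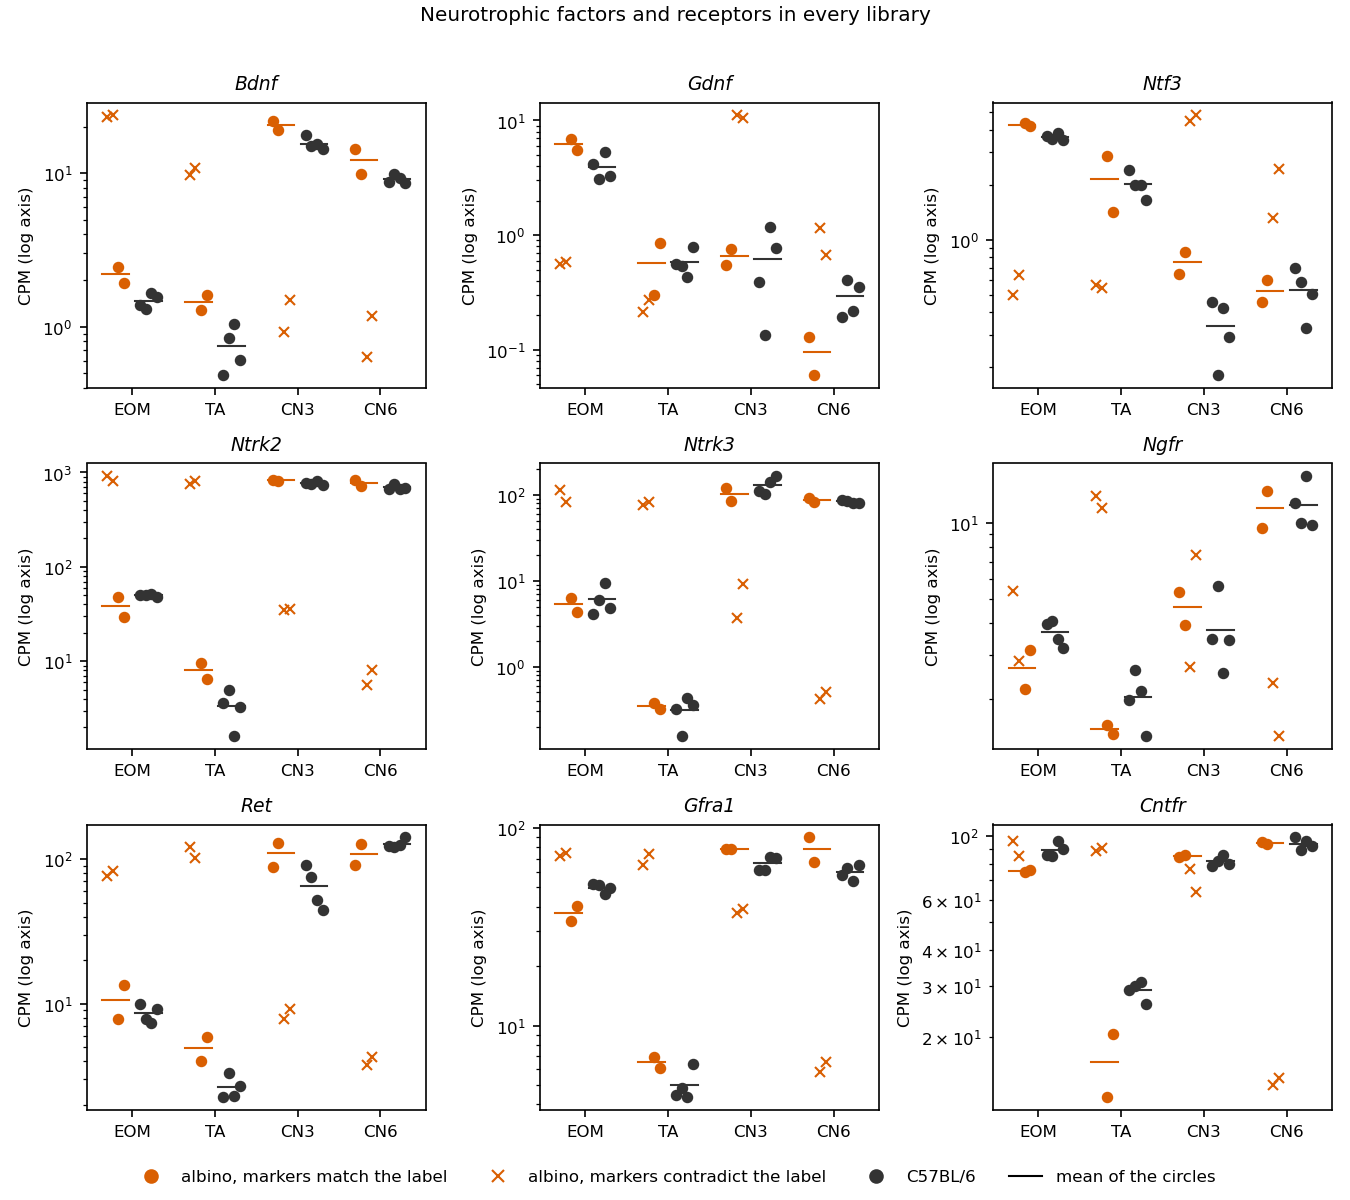
Level of each of the 9 genes in CPM (log axis) in all 32 libraries by labelled tissue, with albino libraries left of C57BL/6. Circles are libraries whose markers match the label, crosses the 8 whose markers contradict it, and the line is the mean of the circles. Gdnf circles stand highest in EOM and Bdnf, Ntrk2 and Ntrk3 circles in CN3 and CN6.

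Among the neurotrophin receptors, Ntrk2 (chromosome 13, 58806569 to 59133970, mm10) was high in the nucleus samples. It was at 781, 749, 822 and 744 CPM in C57BL/6 CN3 and at 661, 759, 672 and 689 CPM in C57BL/6 CN6, groups that overlap (log2 fold change 0.11 ± 0.06, adjusted p = 0.17). In muscle it was at 50.4, 49.8, 51.6 and 47.8 CPM in C57BL/6 EOM, against 3.60, 4.99, 1.60 and 3.25 CPM in C57BL/6 TA. EOM over TA gave a log2 fold change of 3.21 ± 0.21 (adjusted p = 3.9e-08), with no overlap. EOM over CN3 gave −3.62 ± 0.07 and EOM over CN6 −3.50 ± 0.06 (adjusted p = 5.7e-11 and 5.7e-12). Astrocytes carry a TrkB form without a kinase, and gene-level counts do not separate it from the full-length receptor.

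Ntrk3 (chromosome 7, 78175959 to 78738012, mm10) followed the same order. It was at 111, 104, 143 and 165 CPM in C57BL/6 CN3 and at 88.8, 86.3, 81.6 and 80.7 CPM in C57BL/6 CN6. CN3 was higher in every library, by 0.59 ± 0.12 on the log2 scale (adjusted p = 0.0051). In C57BL/6 EOM it was at 4.13, 6.04, 9.48 and 4.82 CPM and in C57BL/6 TA at 0.320, 0.153, 0.433 and 0.358 CPM, the TA values being 4 to 10 counts. EOM over TA gave 3.59 ± 0.36 (adjusted p = 1.8e-06).

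Ngfr (chromosome 11, 95568818 to 95587735, mm10) differed between the nucleus samples in the other direction. It was at 3.49, 5.65, 2.54 and 3.44 CPM in C57BL/6 CN3, against 11.9, 9.94, 15.2 and 9.77 CPM in C57BL/6 CN6. All CN3 libraries were below all CN6 libraries, with a log2 fold change of −1.66 ± 0.24 (adjusted p = 6.7e-04). In muscle it was at 3.97, 4.10, 3.48 and 3.21 CPM in C57BL/6 EOM and at 2.00, 2.61, 2.16 and 1.43 CPM in C57BL/6 TA. That gave 0.17 ± 0.22 with TMM (adjusted p = 0.49) and 0.85 with library totals (adjusted p = 0.0039).

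The receptors of GDNF differed from each other in where they were read. Ret (chromosome 6, 118151745 to 118197718, mm10), the kinase, was at 91.0, 74.7, 51.9 and 44.2 CPM in C57BL/6 CN3, against 123, 120, 125 and 141 CPM in C57BL/6 CN6 (log2 fold change −1.0 ± 0.19, adjusted p = 0.0037). All CN3 libraries were lower, and CN3 varied more among its libraries than CN6. In muscle Ret was at 9.98, 7.82, 7.31 and 9.22 CPM in C57BL/6 EOM, against 2.24, 3.30, 2.29 and 2.68 CPM in C57BL/6 TA (log2 fold change 1.03 ± 0.18, adjusted p = 1.8e-04).

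Gfra1 (chromosome 19, 58235604 to 58455909, mm10), the binding subunit, stood out from Ret by its level in eye muscle. It was at 51.8, 51.4, 46.1 and 49.7 CPM in C57BL/6 EOM, at 4.44, 4.83, 4.33 and 6.40 CPM in C57BL/6 TA, at 61.5, 61.4, 71.2 and 70.8 CPM in C57BL/6 CN3 and at 57.8, 62.9, 53.8 and 64.7 CPM in C57BL/6 CN6. EOM over TA gave a log2 fold change of 2.64 ± 0.12 (adjusted p = 1.3e-09). In CPM every EOM library was below every CN3 and CN6 library. With TMM, EOM against CN3 gave −0.08 (95% interval −0.25 to 0.10, adjusted p = 0.37) and EOM against CN6 0.04 (−0.12 to 0.20, adjusted p = 0.63). With library totals these became −0.41 (adjusted p = 4.9e-04) and −0.27 (adjusted p = 0.0047), so the direction against CN6 turns with the scaling. Read counts of Gfra1 were 5.19 to 6.57 times those of Ret within C57BL/6 EOM libraries, against 1.46 to 2.39 times in C57BL/6 TA. The ratio was 0.676 to 1.60 in C57BL/6 CN3 and 0.431 to 0.523 in C57BL/6 CN6.

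Cntfr (chromosome 4, 41657498 to 41697089, mm10) had the flattest profile. It was at 85.8, 85.0, 96.1 and 90.0 CPM in C57BL/6 EOM, at 29.0, 30.0, 31.0 and 26.1 CPM in C57BL/6 TA, at 78.5, 82.0, 86.1 and 79.7 CPM in C57BL/6 CN3 and at 98.8, 89.1, 96.3 and 92.1 CPM in C57BL/6 CN6. EOM over TA gave a log2 fold change of 0.95 ± 0.07 (adjusted p = 8.6e-08) and CN3 over CN6 −0.25 ± 0.06 (adjusted p = 0.012). EOM over CN3 gave 0.46 and EOM over CN6 0.22 with TMM (adjusted p = 3.6e-05 and 0.0036), but 0.13 (adjusted p = 0.071) and −0.08 (adjusted p = 0.23) with library totals, so the direction against CN6 turns with the scaling. Per length of exon it was the most abundant of the 9 genes in both muscles, at 32.1 ± 1.81 RPKM in C57BL/6 EOM and 10.4 ± 0.767 RPKM in C57BL/6 TA (SD, n = 4). In C57BL/6 CN3 it averaged 29.3 ± 1.21 RPKM, against 40.1 ± 1.85 RPKM for Ntrk2. Ntrk2 and Ntrk3 have long annotated exon unions, 19292 and 30170 bases, so their RPKM may understate them.

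Of the 9 genes, 6 rose in C57BL/6 EOM over TA and none fell, where 77.2% of all 14408 genes tested were called and 42.3% were called higher. The median log2 fold change of the 9 was 1.03, against 0.10 for all genes tested. Under library totals the median of all genes moves to 0.77, a shift of 0.67, and the folds of the 9 move with it. Between C57BL/6 CN3 and CN6, 2 rose and 3 fell, where 26.6% of all genes were called, with medians of 0.10 for the 9 and −0.0044 for all genes. Between EOM and CN3, 3 were higher and 4 lower in EOM, where 84.5% were called, and between EOM and CN6, 3 were higher and 5 lower, where 86% were called. For the muscle against nucleus pairs, which share the EOM libraries, the 7 and 8 called of 9 are near the background.

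**Figure D2:**
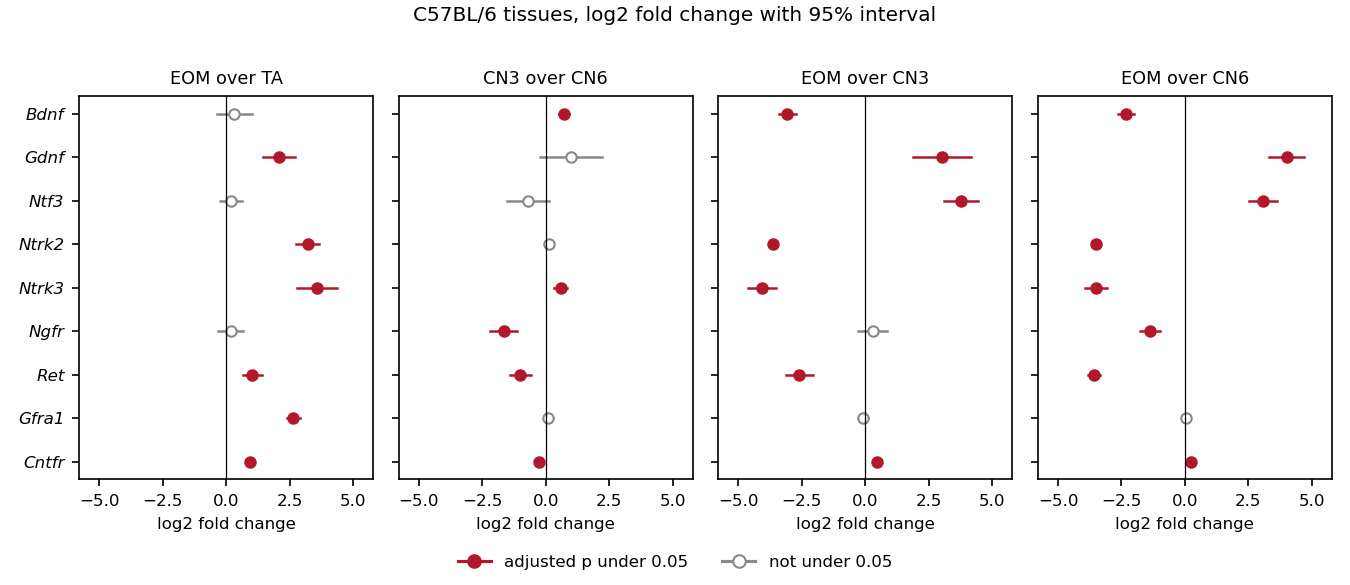
Log2 fold change with its 95% interval for the 9 genes between C57BL/6 tissues, 4 libraries each, first-named tissue over the second. Filled red points passed an adjusted p of 0.05 and open grey points did not. Gdnf and Ntf3 lie right of 0 and Bdnf, Ntrk2, Ntrk3 and Ret left of 0 in both panels of EOM over a nucleus sample.

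**Figure D3:**
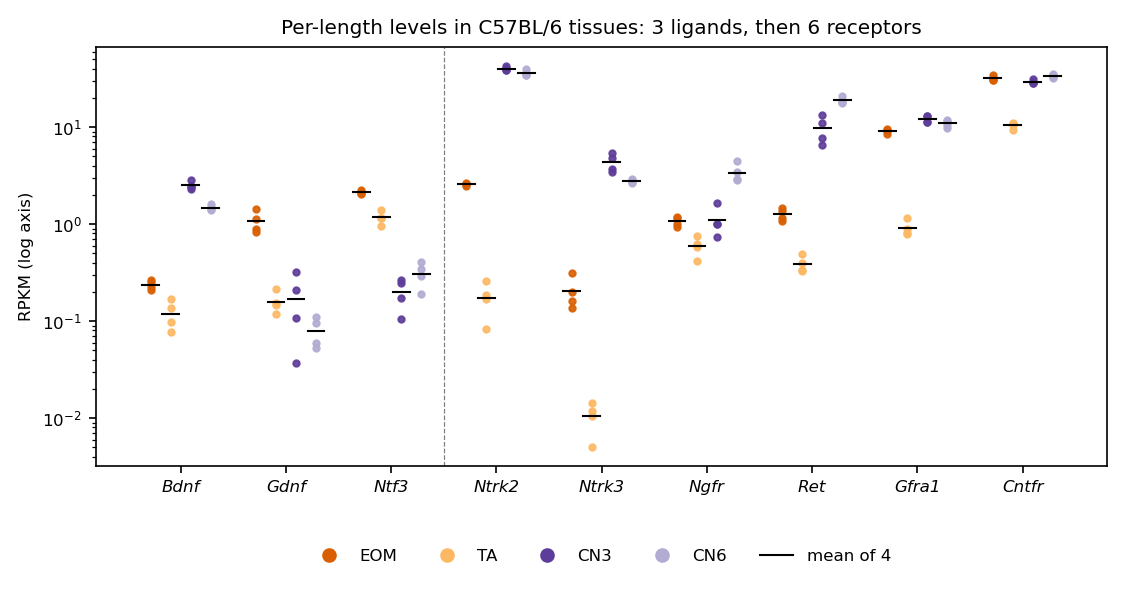
RPKM (log axis) of the 9 genes in the 4 libraries of each C57BL/6 tissue, ligands left of the dashed line, with the mean as a bar. Cntfr stands highest in both muscles (means 32.1 and 10.4 RPKM) and Ntrk2 in CN3 (40.1 RPKM) and CN6 (36.0 RPKM).

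Genes of other cell types moved with the muscle difference. Sox10, a Schwann cell regulator, was at 13.3 to 15.9 CPM in C57BL/6 EOM, against 0.960 to 2.00 CPM in C57BL/6 TA, and the summed Schwann cell list was 774 to 904 CPM, against 89.8 to 140 CPM. The fibroblast list summed to 5076 to 5735 CPM in EOM, against 446 to 641 CPM in TA, and the neuromuscular junction list to 415 to 468 CPM, against 88.0 to 100.3 CPM. The list of microglia genes, which macrophages share, summed to 84.9 to 118 CPM in EOM, against 5.20 to 7.52 CPM in TA, with all 5 genes called higher. The part of these cells in the higher Gfra1, Ntrk2, Ntrk3 and Gdnf of EOM was not tested. Snap25, a gene of nerve terminals, was at 5.87 to 34.2 CPM in C57BL/6 EOM and at 0 in C57BL/6 TA.

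In the 4 C57BL/6 CN3 libraries Ret and a dopamine gene had the same rank order. The order of the other dopamine list genes and the share of all genes in this order were not examined. Th, the rate-limiting enzyme of dopamine synthesis, was at 46.3, 22.5, 11.5 and 4.97 CPM in the libraries with 91.0, 74.7, 51.9 and 44.2 CPM of Ret. In C57BL/6 CN6 Th was at 4.46 to 10.7 CPM while Ret was at 120.4 to 141 CPM. The part of motor and dopamine neurons in the CN3 and CN6 levels of Ret, Ngfr and Ntrk3 was not tested.

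**Figure D4:**
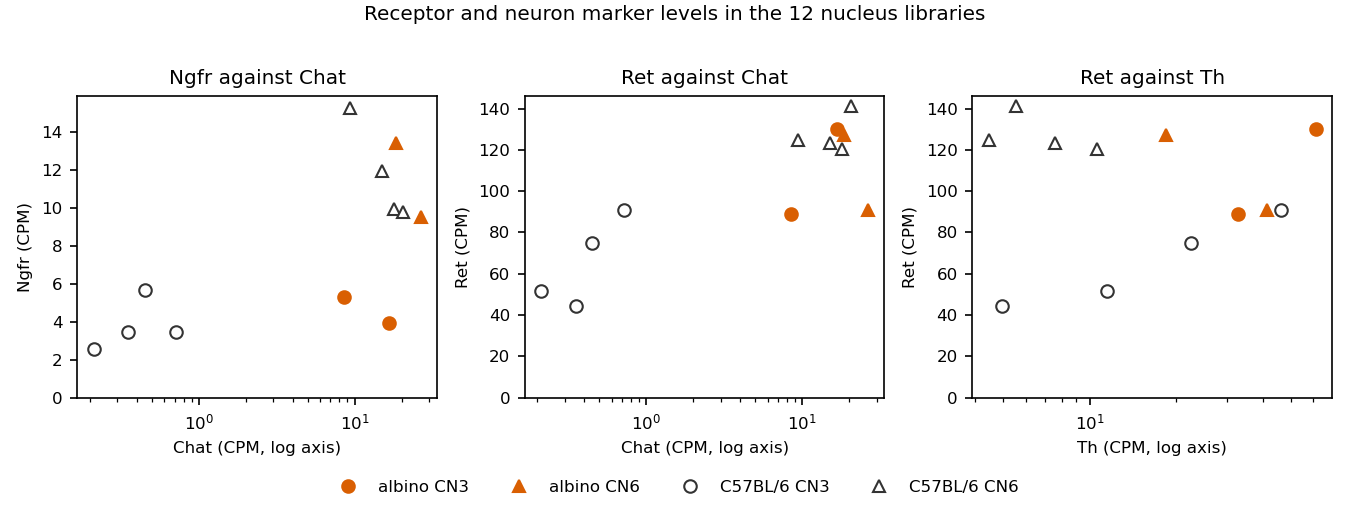
Ngfr and Ret in CPM against the markers Chat and Th (log axis) in the 12 nucleus libraries whose markers match the label. C57BL/6 CN3 (open circles) lies at the left in both Chat panels with Ngfr at 2.54 to 5.65 CPM, and C57BL/6 CN6 (open triangles) at 9.77 to 15.2 CPM.

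The genotype comparison in eye muscle gave 1 called gene of the 9, where 32% of all 15397 genes were called. Gfra1 fell to 34.0 and 40.5 CPM in albino EOM, against 51.8, 51.4, 46.1 and 49.7 CPM in C57BL/6 EOM. Both albino libraries were lower, with a log2 fold change of −0.40 ± 0.11 (adjusted p = 0.026). The call was lost, with adjusted p up to 0.14, when C57BL/6 EOM 2, C57BL/6 EOM 4 or albino EOM 3 was left out, where the log2 fold change was −0.39 to −0.28. A fit without 1 albino library leaves 1, which is assumed to vary like the C57BL/6 libraries, here and in the other tissues. The call was also lost with offsets for GC content and exon length (−0.37, adjusted p = 0.10). The summed Schwann cell list was also lower, at 689 to 710 CPM in albino EOM, against 774 to 904 CPM in C57BL/6 EOM, while Sox10 was at 15.3 and 15.4 CPM in the albino libraries, within the C57BL/6 range. The fibroblast list was lower in albino EOM, at 3778 to 3884 CPM, against 5076 to 5735 CPM in C57BL/6 EOM. The part of these cells in the Gfra1 difference was not tested.

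Gdnf was at 6.87 and 5.49 CPM in albino EOM, both above the 4 C57BL/6 libraries, with a log2 fold change of 0.66 ± 0.25 that did not pass (adjusted p = 0.080) but did without C57BL/6 EOM 3 (0.82) and by limma voom (0.79). The libraries labelled albino CN3 3 and 4, which carry muscle genes, had 11.0 and 10.5 CPM of Gdnf, against 0.549 and 0.762 CPM in those labelled albino CN3 1 and 2. With the albino libraries grouped by tissue markers, 4 of the 9 genes were called in EOM, where 39% of all genes were: Gdnf at 1.10 (adjusted p = 0.0071), Ntrk2 at −0.43 (adjusted p = 0.018), Gfra1 at −0.40 (adjusted p = 0.0037) and Cntfr at −0.29 (adjusted p = 0.024). On the labelled libraries Ntrk2 was at 47.5 and 29.3 CPM in albino EOM, against 47.8 to 51.6 CPM in C57BL/6 EOM (log2 fold change −0.37 ± 0.15, adjusted p = 0.095). That value rested on 1 library, at −0.75 without albino EOM 3 and −0.12 without albino EOM 4. Snap25 was at 56.9 CPM in albino EOM 3 and 7.71 CPM in albino EOM 4. Counts of Ntrk2 per count of Snap25 were 0.835 and 3.80 there, against 1.51 to 8.13 in C57BL/6 EOM. The ratio was 0.207 to 0.334 in albino CN3 and CN6. The part of nerve RNA in the Ntrk2 values was not tested. The sign of the Ntrk2 difference turned with offsets for GC content and length (0.032, adjusted p = 0.93). Cntfr was at 74.9 and 76.4 CPM in albino EOM, against 85.0 to 96.1 CPM in C57BL/6 EOM (−0.22 ± 0.08, adjusted p = 0.059). It was called with those offsets (−0.61, adjusted p = 0.011), with library totals (−0.24, adjusted p = 0.039), without the filter on low counts (−0.25, adjusted p = 0.047) and by DESeq2 (−0.22, adjusted p = 0.046). The other ligands had 2.46 and 1.93 CPM of Bdnf and 4.32 and 4.19 CPM of Ntf3 in albino EOM, both above their C57BL/6 ranges and neither called (adjusted p = 0.20 and 0.42).

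In limb muscle 3 of the 8 genes tested were called, where 31.1% of all 13295 genes were. Ntrk2 rose to 9.50 and 6.51 CPM in albino TA, against 3.60, 4.99, 1.60 and 3.25 CPM in C57BL/6 TA (log2 fold change 1.22 ± 0.29, adjusted p = 0.0072). Ret rose to 4.01 and 5.82 CPM in albino TA, against 2.24, 3.30, 2.29 and 2.68 CPM in C57BL/6 TA (0.87 ± 0.22, adjusted p = 0.010). Cntfr fell to 12.3 and 20.5 CPM in albino TA, against 29.0, 30.0, 31.0 and 26.1 CPM in C57BL/6 TA (−0.86 ± 0.16, adjusted p = 0.0013). In each of the 3 the albino and C57BL/6 libraries did not overlap, but this was also so for Bdnf, which was not called. The share of all genes without overlap was not counted. The Ntrk2 call was lost without albino TA 3 (0.91, adjusted p = 0.11) and the Ret call without albino TA 4 (0.60, adjusted p = 0.16). Grouped by tissue markers, the same 3 genes were called, where 33.7% of all genes were. Bdnf was at 1.29 and 1.62 CPM in albino TA, against 0.480 to 1.04 CPM in C57BL/6 TA, and was not called (0.93 ± 0.39, adjusted p = 0.088). It was called with offsets for GC content and length (1.15, adjusted p = 0.041), without C57BL/6 TA 3 (1.15, adjusted p = 0.045) and with all 8 groups in 1 fit (1.02, adjusted p = 0.0037). Ntrk3, at 0.378 and 0.323 CPM in albino TA, had too few counts to be tested.

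Other markers moved with the genotype in TA as well. Snap25 was at 2.84 and 0.970 CPM in albino TA and at 0 in C57BL/6 TA. Counts of Ntrk2 per count of Snap25 were 3.35 and 6.71 in albino TA, against 0.207 to 0.334 in albino CN3 and CN6 and 0.171 to 0.312 in C57BL/6 CN3 and CN6. The fibroblast list summed to 1202 to 1239 CPM in albino TA, against 446 to 641 CPM in C57BL/6 TA, and the Schwann cell list to 102 to 104 CPM, against 89.8 to 140 CPM. The microglia list summed to 21.6 to 22.3 CPM in albino TA, against 5.20 to 7.52 CPM in C57BL/6 TA, with 3 of its 5 genes called higher. The part of these cells in the Ntrk2, Ret and Cntfr differences was not tested. Arntl, a core clock gene, was at 42.0 and 37.2 CPM in albino TA, against 6.94 to 8.66 CPM in C57BL/6 TA, and at 52.6 and 48.1 CPM in albino EOM, against 3.79 to 6.90 CPM in C57BL/6 EOM. The labels give no time of collection, so clock time and genotype cannot be told apart.

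A test of whether the albino difference was unequal in EOM and TA called 2 of the 9 genes, where 7.73% of all genes were called. For Ntrk2 the albino over C57BL/6 log2 fold change in EOM minus that in TA was −1.59 ± 0.37 (95% interval −2.39 to −0.79, adjusted p = 0.019). For Gfra1 it was −0.76 ± 0.21 (95% interval −1.21 to −0.30, adjusted p = 0.044). With 1 library left out the values ran from −1.95 to −1.26 for Ntrk2 and from −0.95 to −0.61 for Gfra1. Each gene lost its call in some of these fits, as given further below. Cntfr had 0.64 ± 0.19 (adjusted p = 0.056). Grouped by tissue markers, where 13% of all genes were called, Cntfr was called as well (0.68, adjusted p = 0.014), beside Ntrk2 (−1.54, adjusted p = 0.0046) and Gfra1 (−0.72, adjusted p = 0.0093). DESeq2 (0.60, adjusted p = 0.026) and limma voom (0.69, adjusted p = 0.035) also called Cntfr. Genes of other cell types moved with this contrast on the labelled libraries. All 7 fibroblast genes were called lower, with a median of −1.69, and 2 of the 5 microglia genes were, with a median of −2.18, against a median of −0.028 for all genes. The part of these cells in the Ntrk2 and Gfra1 values was not tested.

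The start regions of Ntrk2 and Gfra1, the genes called in this test, are printed with the motifs above in capitals.
Ntrk2, chr13:58806319-58806618, + strand: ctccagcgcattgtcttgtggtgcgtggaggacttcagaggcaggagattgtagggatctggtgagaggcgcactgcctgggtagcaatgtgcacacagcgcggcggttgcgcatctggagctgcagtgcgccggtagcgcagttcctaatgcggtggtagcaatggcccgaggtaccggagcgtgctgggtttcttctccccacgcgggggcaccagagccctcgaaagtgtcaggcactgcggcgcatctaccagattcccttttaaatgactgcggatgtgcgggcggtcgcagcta
Gfra1, chr19:58455349-58455648, - strand: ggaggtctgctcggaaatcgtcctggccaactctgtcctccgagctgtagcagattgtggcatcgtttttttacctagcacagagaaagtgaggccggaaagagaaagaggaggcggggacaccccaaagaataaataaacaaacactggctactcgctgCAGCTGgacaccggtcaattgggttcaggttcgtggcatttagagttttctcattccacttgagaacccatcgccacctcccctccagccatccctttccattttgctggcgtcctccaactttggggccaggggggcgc
The Gfra1 region holds 1 CAGCTG, found in 16.3% of all start regions, and the Ntrk2 region none of the 3 motifs.

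**Figure D5:**
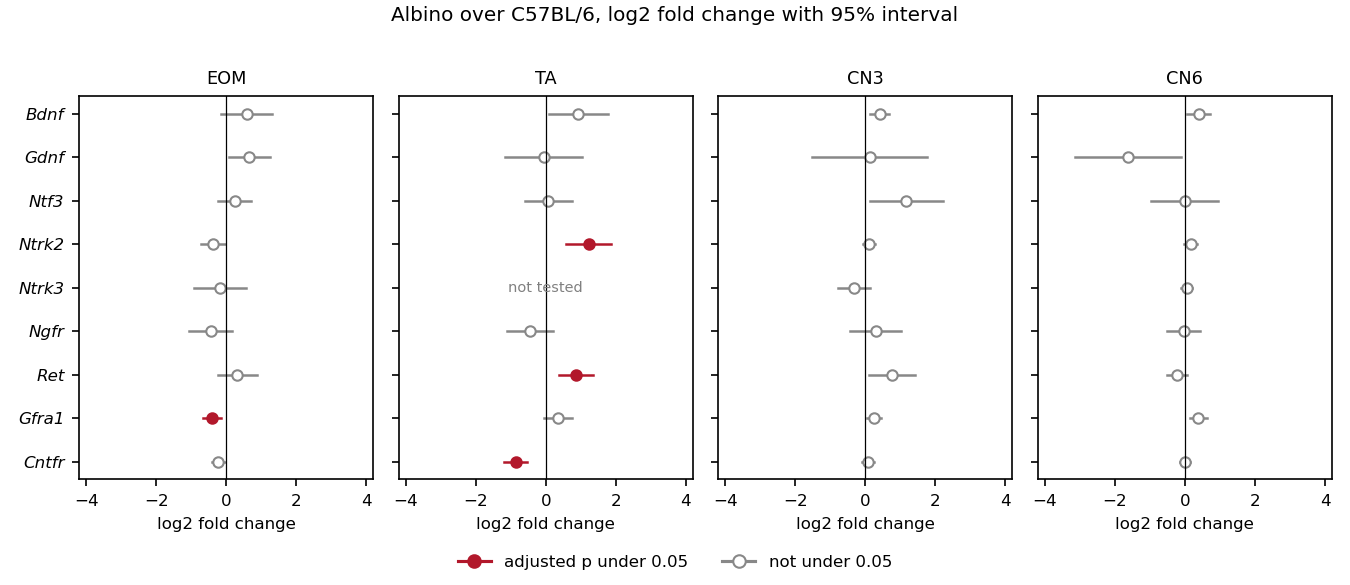
Log2 fold change of albino over C57BL/6 with its 95% interval for the 9 genes in each tissue, from 2 albino and 4 C57BL/6 libraries. Filled red points passed an adjusted p of 0.05: Gfra1 in EOM, and Ntrk2, Ret and Cntfr in TA. Ntrk3 was not tested in TA.

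None of the 9 genes was called between albino and C57BL/6 nucleus samples by edgeR's quasi-likelihood test. In CN3, 0.0804% of all 16171 genes were called and 1345 had an unadjusted p under 0.05, as did 4 of the 9. DESeq2 and limma voom called 0 of the 9. In CN6, 0.0246% of all 16268 genes were called and 1523 had an unadjusted p under 0.05, as did 3 of the 9. Both tools again called 0 of the 9. Bdnf was at 22.0 and 19.1 CPM in albino CN3, above the 14.3 to 17.7 CPM of C57BL/6 CN3 (log2 fold change 0.41, 95% interval 0.13 to 0.68, adjusted p = 0.55). Ret was at 88.7 and 130 CPM in albino CN3, against 44.2 to 91.0 CPM in C57BL/6 CN3 (0.75, 0.10 to 1.41, adjusted p = 0.58). Gfra1 was at 78.5 and 78.0 CPM in albino CN3, against 61.4 to 71.2 CPM in C57BL/6 CN3 (0.26, 0.05 to 0.46, adjusted p = 0.57).

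In CN6, Gfra1 was at 89.5 and 67.6 CPM in albino libraries, against 53.8 to 64.7 CPM in C57BL/6 libraries (log2 fold change 0.38, 95% interval 0.14 to 0.63, adjusted p = 0.44). Gdnf was at 4 and 2 counts in the albino CN6 libraries and at 6 to 16 counts in C57BL/6 CN6. Leaving out albino CN6 2 raised the called genes of the 9 to 3, with Bdnf at 0.63, Ret at −0.51 and Gfra1 at 0.56 on the log2 scale, but these calls set 1 albino library against 4 and rest on the spread of the C57BL/6 libraries alone. Albino CN6 1, the albino library kept in that fit, stood apart in Tph2, the enzyme of serotonin synthesis in the brain. The level there was 244 CPM, against 11.5 CPM in albino CN6 2, which lay within the C57BL/6 CN6 range. Tph2 was at 90.6 and 233 CPM in albino CN3, against 0.859 to 3.23 CPM in C57BL/6 CN3, and at 5.30 to 17.1 CPM in C57BL/6 CN6. The part of serotonin neurons in these levels was not tested. The genotype difference in CN3 minus that in CN6 was called for none of the 9 genes and for 0.012% of all 16604 genes. An unadjusted p under 0.05 was found for 803 of all genes and for 1 of the 9 (Ret). DESeq2 and limma voom called 0 of the 9.

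Set side by side for the eye muscles, each ligand in muscle and its receptor in the nucleus samples were read in both strains. The C57BL/6 CN3 samples held few motor neuron transcripts, so their receptor levels may not be those of motor neurons. None of the genotype differences between the means that follow was called by edgeR's test on the labelled libraries. Gdnf averaged 6.18 ± 0.973 CPM in albino EOM and 3.94 ± 1.02 CPM in C57BL/6 EOM. Its kinase Ret averaged 109 ± 29.2 CPM in albino CN3 and 65.4 ± 21.4 CPM in C57BL/6 CN3, and 109 ± 25.9 CPM in albino CN6 and 127 ± 9.34 CPM in C57BL/6 CN6 (SD, n = 2 albino and 4 C57BL/6). Ntf3 averaged 4.26 ± 0.0944 CPM in albino EOM and 3.64 ± 0.150 CPM in C57BL/6 EOM. Its kinase Ntrk3 averaged 103 ± 25.8 CPM in albino CN3 and 131 ± 28.5 CPM in C57BL/6 CN3, and 88.0 ± 6.75 CPM in albino CN6 and 84.3 ± 3.83 CPM in C57BL/6 CN6. Bdnf averaged 2.19 ± 0.376 CPM in albino EOM and 1.47 ± 0.162 CPM in C57BL/6 EOM. Its kinase Ntrk2 averaged 825 ± 12.2 CPM in albino CN3 and 774 ± 35.7 CPM in C57BL/6 CN3. In CN6, Ntrk2 averaged 782 ± 83.7 CPM in albino and 695 ± 44.1 CPM in C57BL/6 libraries.

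The groups were also ordered by mean CPM, and neighbours whose ranges overlap are not told apart. A gap between ranges is not a call, and the share of all genes without overlap was not counted. Albino and C57BL/6 ranges did not overlap for Gdnf, Ntf3, Bdnf and Cntfr in EOM, Bdnf in CN3 and Gdnf in CN6. None of these was called by edgeR's test on the labelled libraries. Gdnf ran from albino EOM through C57BL/6 EOM, with no overlap, to CN3 and TA of both strains and C57BL/6 CN6, which overlapped in a chain, with albino CN6 lowest and apart. Ntf3 ran from albino EOM through C57BL/6 EOM to the overlapping TA groups and then the overlapping nucleus groups. Bdnf ran from albino CN3 to C57BL/6 CN3, with no overlap, then through the CN6 groups, the first of which (albino) overlapped C57BL/6 CN3, to EOM and TA. The 4 nucleus groups overlapped in a chain for Ntrk2, Ntrk3 and Ret and stood apart from all muscle groups. For Cntfr the chain of overlap held the 4 nucleus groups and C57BL/6 EOM, with albino EOM, C57BL/6 TA and albino TA below it and apart from each other.

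The wider pathways were read in the same libraries. Of 15 other neurotrophin genes, 11 rose and 2 fell in C57BL/6 EOM over TA, of 13 tested, where 77.2% of all genes were called and 42.3% were called higher. Ntf5, the gene of neurotrophin-4 and a further TrkB ligand, fell to 2.37 to 2.62 CPM in EOM, against 7.64 to 8.44 CPM in TA (log2 fold change −2.33 ± 0.13, adjusted p = 9.1e-09). In albino TA 3 of them rose and 1 fell of 11 tested, where 31.1% of all genes were called. Sort1, the gene of sortilin, was the one that fell, to 113 to 122 CPM, against 134 to 148 CPM in C57BL/6 TA (−0.27 ± 0.07, adjusted p = 0.0092).

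Of 10 other GDNF family genes, all 6 tested rose in C57BL/6 EOM over TA, where 42.3% of all genes were called higher. Nrtn, the ligand neurturin, was at 0.642 to 1.67 CPM in EOM, against 0.0866 to 0.345 CPM in TA (log2 fold change 1.64 ± 0.46, adjusted p = 0.0058). Gfra2, which binds it, was at 8.30 to 12.2 CPM in EOM, against 1.30 to 2.20 CPM in TA (1.89 ± 0.19, adjusted p = 1.9e-06). Gfra3, the receptor of artemin, was at 1.67 to 2.37 CPM in EOM, against 0 to 0.153 CPM in TA. Between C57BL/6 CN3 and CN6, 3 rose and 1 fell of 6 tested, where 26.6% of all genes were called. Among those that rose was Gfra2, at 42.7 to 80.4 CPM in CN3, against 22.6 to 27.4 CPM in CN6 (1.25 ± 0.17, adjusted p = 5.7e-04).

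Lifr, a partner of Cntfr, fell in both albino muscles, and Il6st, the other, was called in EOM. Of 13 CNTF and gp130 genes tested, 1 rose and 6 fell in albino EOM, where 32% of all genes were called. Of 12 tested in albino TA, 1 rose and 2 fell, which is below the 31.1% of all genes called. Lifr, the signalling subunit shared with leukaemia inhibitory factor, fell to 68.6 and 72.5 CPM in albino EOM, against 129 to 163 CPM in C57BL/6 EOM (log2 fold change −1.0 ± 0.09, adjusted p = 5.3e-04). It also fell to 38.3 and 39.1 CPM in albino TA, against 58.3 to 83.9 CPM in C57BL/6 TA (−0.95 ± 0.12, adjusted p = 1.2e-04). Il6st (gp130) fell to 246 and 265 CPM in albino EOM, against 303 to 368 CPM in C57BL/6 EOM (−0.40 ± 0.11, adjusted p = 0.020). In TA it was at 206 and 210 CPM in albino libraries, against 207 to 242 CPM in C57BL/6 libraries, and was not called (−0.15 ± 0.06, adjusted p = 0.10). Its genotype difference in EOM minus that in TA was −0.26 and was not called (adjusted p = 0.25). Jak2, a kinase of this pathway, fell in both, by 0.63 in albino EOM and by 0.86 in albino TA on the log2 scale (adjusted p = 0.0014 and 3.7e-06). Cntf itself was at or below 0.271 CPM in every library kept, but its annotated span (chromosome 19, 12763660 to 12765632) lies inside that of Zfp91 on the same strand, so its reads may not have been assigned to it.

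Of 18 adaptors and genes induced by these receptors, 4 rose and 2 fell of 17 tested in albino EOM, and 3 rose and 1 fell of 15 tested in albino TA, both near the 32% and 31.1% of all genes called. Egr1, an immediate early gene, had log2 fold changes of 2.01 ± 0.46 in EOM and 2.32 ± 0.36 in TA (adjusted p = 0.011 and 4.6e-04). Arc, another, rose by 1.35 ± 0.16 in albino EOM (adjusted p = 9.8e-04), and its genotype difference in EOM exceeded that in TA by 1.71 ± 0.33 (adjusted p = 0.0060). Plat, tissue plasminogen activator, is a protease from the list of other neurotrophin genes and not from this list. It rose by 1.03 ± 0.18 in albino TA (adjusted p = 0.0010). Its genotype difference in EOM minus TA was −0.95 ± 0.23 (adjusted p = 0.021), the same sign as for Ntrk2 and Gfra1.

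As a description over the 24 libraries kept, which share 4 tissues and so largely follow tissue, the gene most like each member in log2 CPM was Pnck for Bdnf (Pearson's r = 0.988), Alpl for Gdnf (0.921) and Mettl20 for Ntf3 (0.964). For the receptors it was Cadm3 for Ntrk2 (0.998), Gprasp2 for Ntrk3 (0.997), Cd38 for Ngfr (0.949), Tom1l2 for Ret (0.989), Qpct for Gfra1 (0.992) and Snx6 for Cntfr (0.973).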

How the data were processed

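Raw read counts per gene symbol were deposited by the authors with no normalization for 24421 genes in 32 libraries. Trimmomatic 0.33, FastQC, HISAT2 2.1.0, featureCounts and edgeR, with the build mm10, are the tools listed by the submitters' processing notes. The annotation and strand setting are not given in the sources used here. GENCODE on mm10 gave gene positions and union exon lengths, found for 95.4% of symbols.

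Members and gene lists were chosen with earlier results of these data known. A library was called muscle or brain by which of 2 marker lists, fast fibre or glutamatergic, had the higher mean log2 CPM, and the 8 contradicting their label were left out. From the counts, CPM used the deposited totals and log2 CPM a prior count of 2. Each comparison used filterByExpr, TMM and the quasi-likelihood F test of edgeR 4.0.16 (R 4.3.3), adjusted by Benjamini-Hochberg over all genes and called under 0.05. The standard error comes from the F statistic. The procedure was tested on simulated data.

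Named are the 9 members, pathway genes called (up to 4 per list and comparison by adjusted p), their defining ligands and receptors where a result turns on them, the gene most like each member, and cell markers. Some genes this rule names are not reported here, though list counts and sums include them. Alternatives were upper quartile and DESeq2 1.42.0 size factors, omitting the filter, requiring CPM of 1 or more in 4 libraries, the DESeq2 Wald test, limma 3.58.1 voom, GC and length offsets, wider fits, a replicate block, all libraries as labelled, regrouping by markers, and leaving out each library. Library totals and halved counts were added after seeing the data. Totals of 18544334 to 44254021 counts set the precision, and counts from PCR without molecular identifiers are not independent molecules.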

Additional observations from a re-analysis of the deposited data

Results flagged for a closer look

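The genotype difference of 2 genes differed between eye and limb muscle by a test of the difference itself. For Ntrk2 the albino over C57BL/6 log2 fold change in EOM minus that in TA was −1.59 (95% interval −2.39 to −0.79), from −0.37 in EOM and 1.22 in TA. The call on this difference was lost when albino TA 3 (−1.26) or albino EOM 4 (−1.34) was left out. For Gfra1 it was −0.76 (95% interval −1.21 to −0.30), from −0.40 in EOM and 0.35 in TA, and 9 of the 12 fits that leave out 1 library lost the call, with values from −0.95 to −0.61 over the 12. On the same contrast all 7 fibroblast genes were called lower (median −1.69) and 2 of 5 microglia genes (median −2.18), where 7.73% of all genes were called, and the part of these cells was not tested. In both genes the 2 albino EOM libraries lay below all C57BL/6 EOM libraries. For Ntrk2 the gap was narrow, at 47.5 against 47.8 CPM, and its difference in EOM alone was not called. It turned to 0.032 with offsets for GC content and length. For Ntrk2 the 2 albino TA libraries lay above all C57BL/6 TA libraries. The share of all genes without overlap was not counted. Snap25, a gene of nerve terminals, was at 56.9 CPM in albino EOM 3 and 7.71 CPM in albino EOM 4. The part of nerve RNA in the Ntrk2 difference was not tested. No library of a group of 4 stood apart from its group for any of the 9 genes, in 36 groups tested by Dixon's criterion.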

How the results depend on the processing

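The tissue comparisons in C57BL/6 kept their number of called members within 1.5 times under every alternative run, but which genes were called moved with the scaling. With library totals Bdnf, Ntf3 and Ngfr were also called in EOM over TA. In EOM over CN3 and over CN6, Gfra1 gained a call with library totals and Cntfr lost its call. In albino EOM the count of called members was 1, and 2 without a filter, with DESeq2, with voom, with all 8 groups in 1 fit and with library totals, 4 with the albino groups set by tissue markers, 0 with a replicate block (Gfra1 −0.35, adjusted p = 0.099) and 0 with all libraries as labelled. Leaving out 1 library gave 0 to 2. In albino TA it was 3, with 5 for all 8 groups in 1 fit and 0 as labelled. In albino CN6 it was 0, and 0 to 3 over the fits leaving out 1 library. For the EOM minus TA difference it was 2, and 3 (Cntfr added) with upper quartile factors, without a filter, with DESeq2, voom, all 8 groups in 1 fit, tissue markers and halved counts, with 0 as labelled and 0 to 2 leaving out 1 library. As labelled, Gfra1 in albino EOM was 0.0015 and Cntfr in albino TA 0.196. With library totals, EOM against CN6 was −0.27 for Gfra1 and −0.075 for Cntfr. Genes called over the whole table in albino EOM were 4934, 2641 with the block, 1563 with GC and length offsets, 2738 without albino EOM 3 and 1 as labelled. In albino TA they were 4131, 2484 without albino TA 3 and 18 as labelled. In albino CN3 they were 13, with 0 to 101 over the alternatives, and in albino CN6 4, with 0 to 106, and 950 without albino CN6 2. For EOM minus TA they were 1211, with 1896 by DESeq2, 1988 by tissue markers, 33 as labelled, and 591, 605 and 593 without albino EOM 3, albino TA 3 and albino TA 4. For CN3 minus CN6 they were 2, with 0 to 20. For C57BL/6 CN3 against CN6 they were 4252, and 2826 without C57BL/6 CN6 4. Deviations of same-numbered libraries from their group means correlated weakly (r from −0.194 to 0.254 over the pairs). Both ends come from albino against C57BL/6 CN3, which cannot be the same mouse. Between tissues of C57BL/6, r ran from −0.175 to 0.141, and no pair of albino tissues was examined. Weak correlation between unlike tissues cannot show that they came from different mice. Whether the numbers pair the samples is not known, and the block is given as a hint only. Most low counts were even (75.4% to 84.7% of values from 1 to 20), and halved counts changed 1 of 86 member results, Cntfr in EOM minus TA (0.64, now called at an adjusted p of 0.049). With 2 albino libraries per tissue, small differences and genes under about 10 counts were not detectable at this depth.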
